A study of Mus musculus with 18 samples.

Results

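The enzymes that make serine and pass its carbon to folate were followed in mouse embryonic stem cells (mESCs) as 9 genes, *Phgdh*, *Psat1*, *Psph*, *Shmt1*, *Shmt2*, *Mthfd1*, *Mthfd1l*, *Mthfd2* and *Aldh1l2*. They were chosen by symbol, for the reactions their products carry out, from the 24369 genes of the deposited table of TPM (transcript levels scaled for transcript length and library total). Earlier results of these data were known when the 9 genes were chosen. All 9 were listed, and all 9 passed the filter on low counts in both experiments. RNA was sequenced from 18 libraries. Of these, 12 form a time course of Rex1GFPd2-Cas9 mESCs, an E14-derived line that carries Cas9 and a short-lived GFP reporter of *Rex1* (*Zfp42* in the files), before differentiation (day 0) and on days 1, 2 and 3, with 3 libraries per day. The other 6 are mESCs of the same line sorted for GFP, so that they express the reporter, with 2 libraries each of wild-type (Rex1GFPd2-Cas9), *Nprl2* KO (Rex1GFPd2-Cas9 Nprl2-/-) and *Tsc2* KO (Rex1GFPd2-Cas9 Tsc2-/-) cells. Every group, wild-type included, therefore carries Cas9 and the reporter.

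The KO lines came from single colonies in which a pair of guides had removed an exon, and the labels do not say whether the libraries of a genotype are separate clones. No source used here says that libraries of a group came from separate cultures, so p values measure the spread between these libraries, which may be technical. The culture medium of the time-course libraries on day 0 is not given in the sources used here. For differentiation the paper's methods name a medium with serum replacement, albumin and nonessential amino acids, without the cytokine LIF or kinase inhibitors. Between day 0 and later days, differentiation and a change of medium therefore cannot be told apart. Nprl2 is a subunit of Gator1, which holds back the protein kinase complex mTORC1 when amino acids are scarce, and Tsc2 holds it back in response to growth factor and energy signals. The comparisons ask how the 9 genes change as naive mESCs differentiate, and how loss of either regulator alters them in cells that still express the reporter.

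Cells make serine from the glycolytic intermediate 3-phosphoglycerate in 3 steps, oxidation by Phgdh, transamination by Psat1 and removal of phosphate by Psph. The Shmt enzymes split serine into glycine and a one-carbon unit carried by tetrahydrofolate, Shmt1 mainly in the cytosol and Shmt2 in mitochondria. In mitochondria, Mthfd2 oxidizes that unit, Mthfd1l releases it as formate, and Aldh1l2 can instead oxidize it to carbon dioxide. Mthfd1 handles the same unit in the cytosol and feeds purine and thymidylate synthesis. Several genes of serine synthesis and of the mitochondrial branch are known targets of the transcription factor Atf4, which is induced when amino acids run short and is also raised by mTORC1.

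The libraries held between 8610357 and 15305054 estimated counts, and a gene without a read could still have up to 3 counts, or between 0.196 and 0.348 CPM (counts rescaled by library total), for counting error only. The chi-square per degree of freedom between libraries of a group, taken over genes, was between 2.44 and 5.81, above the 1 of sampling noise. *Nprl2* had a log2 fold change of -0.96 (adjusted p = 0.00888, SE 0.18) in *Nprl2* KO and *Tsc2* of -1.23 (adjusted p = 9.7e-07, SE 0.08) in *Tsc2* KO, in the quasi-likelihood F test of edgeR, adjusted by Benjamini-Hochberg, which gave every adjusted p below unless another tool is named. Of 8 markers of pluripotent cells, all were detected in every group, and their summed level was between 4879 and 5112 TPM on day 0 and between 1852 and 2213 TPM on day 3. The summed level of 6 markers of formative or post-implantation epiblast was between 116 and 138 TPM on day 0, between 1361 and 1459 TPM on day 1, between 421 and 507 TPM in wild-type GFP+ cells, between 576 and 669 TPM in *Nprl2* KO and between 117 and 122 TPM in *Tsc2* KO. In the same GFP+ groups the pluripotent markers summed to between 3670 and 3901 TPM, between 3185 and 3645 TPM and between 4298 and 4580 TPM. In *Nprl2* KO the epiblast sum was thus above and the pluripotent sum below wild-type, and in *Tsc2* KO the reverse. By gene, 1 of the 6 epiblast markers was higher and 3 of the 8 pluripotent markers lower in *Nprl2* KO at an adjusted p under 0.05. These stand beside 2.78% and 3.66% of all genes tested. In *Tsc2* KO 5 epiblast markers were lower, and 4 pluripotent markers were higher and 2 lower. There 14.9% of all genes tested were higher and 14.2% lower. The 8 markers of feeder fibroblasts summed to between 8.83 and 42.4 TPM in the time course, with *Lum* at 0 on days 0, 2 and 3. On day 3 *Thy1* alone was between 26.8 and 33.3 TPM. Of the 7 tested, 3 were higher and 3 lower on day 3 than on day 0, beside 35% and 35.9% of all genes tested. In GFP+ cells the sum was between 39.1 and 159 TPM, and the *Tsc2* KO libraries were far apart, at 39.1 and 143 TPM. The 6 markers of primitive endoderm summed to at most 12.1 TPM in any library and the 4 of mesendoderm to at most 10.5 TPM. The 4 neural markers reached a sum of 115 TPM on day 3, of which *Nes* made up between 86.2 and 104.8 TPM. There *Sox1* was at most 9.76 TPM, and *Pax6* and *Zic1* were at most 1.19 and 0.48 TPM. The part of these shifts in the results below was not tested, and in bulk RNA a change in the share of cells that express a gene and a change in RNA per cell cannot be told apart.

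On day 0 the 9 genes spanned a wide range of levels. Psat1 mRNA was the highest, at 291 ± 47.9 TPM (SD, n = 3), and *Mthfd1*, *Shmt2*, *Shmt1*, *Phgdh* and *Mthfd2* followed at means between 92.6 and 203 TPM. *Mthfd1l* and *Psph* were near 60.3 and 59.7 TPM, and *Aldh1l2* was at 1.11 ± 0.116 TPM (SD, n = 3). *Mthfd1* and *Shmt2*, *Shmt1* and *Phgdh*, *Phgdh* and *Mthfd2*, and *Mthfd1l* and *Psph* overlapped between their libraries and did not differ in level beyond that spread. The order shifted with the day. On day 1 *Mthfd1* stood first, at 227 ± 10.4 TPM (SD, n = 3), and *Psat1* came after *Shmt1* and *Shmt2*, whereas on days 2 and 3 *Psat1* and *Phgdh* held the 2 highest means, and *Phgdh* overlapped with *Mthfd1* on day 2. In wild-type GFP+ cells *Mthfd1* was again the highest, at 249 ± 14.5 TPM (SD, n = 2), and *Psat1* came after *Shmt1*, at 135 ± 0.817 TPM (SD, n = 2). In *Nprl2* KO *Psat1* was the highest, at 313 ± 30.7 TPM (SD, n = 2), and in *Tsc2* KO it was second to *Mthfd1*, at 220 ± 4.28 TPM (SD, n = 2). The GFP+ and time-course libraries were made separately and their levels are only set side by side.

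On the first day of differentiation, *Psat1* and *Psph* of serine synthesis and *Shmt2*, *Mthfd2* and *Aldh1l2* of the mitochondrial branch fell, and *Mthfd1l* and *Mthfd1* rose slightly. Between day 0 and day 1, 2 of the 9 genes rose and 5 fell, against 30.1% and 30.8% of the 14382 genes tested. The median log2 fold change of the 9 was -0.47, beside 0.00 for all genes tested. Passing in either direction held for 7 of the 9 and for 60.9% of all genes tested, and 67.8% of genes had CPM values that did not overlap between these days, so a call or a gap on its own does not mark out the 9.

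*Psat1* (chr19:15905123-15925059, GRCm38), the transaminase, was at 289, 341 and 245 TPM in the day 0 libraries and at 109.7, 110.1 and 114 TPM on day 1. Every day 1 library lay below every day 0 library, with a log2 fold change of -1.32 (adjusted p = 3.3e-09, SE 0.09). *Psph* (chr5:129765558-129787443), the phosphatase of the last step, was at 57.4, 70.8 and 50.9 TPM on day 0 and at 29.2, 27.2 and 30.02 TPM on day 1. These groups did not overlap either, and the level was 1.98-fold lower on day 1, a log2 fold change of -0.98 (adjusted p = 7.9e-08, SE 0.10). *Phgdh* (chr3:98313171-98339969), the first enzyme of the route, was at 118, 151 and 95.5 TPM on day 0 and at 103, 108 and 99.1 TPM on day 1. Here the day 1 libraries lay within the day 0 range, and the log2 fold change of -0.17 (adjusted p = 0.291, SE 0.13) did not pass the test. Without day 0 library 3, in which *Phgdh* was lowest, it passed, at -0.31 (adjusted p = 0.0113), and without day 0 library 2 its sign turned, to 0.01 (adjusted p = 0.91).

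The day 0 libraries differed from each other in a way that ran through the group. In library 2, 7 of the 9 genes had their highest day 0 level, and the same 7 genes, all but *Shmt1* and *Mthfd1*, had their lowest in library 3. *Shmt1* and *Mthfd1* stood the other way round, highest in library 3 and lowest in library 2. On day 1 the spread between libraries was small, with an SD of 2.48 TPM for *Psat1* and 4.33 TPM for *Phgdh*, against 47.9 and 28.04 TPM on day 0.

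In the mitochondrial branch, *Shmt2* (chr10:127517123-127522444) was at 202, 227 and 179.8 TPM on day 0 and at 134, 132 and 137 TPM on day 1, and *Mthfd2* (chr6:83305704-83326011) at 90.8, 98.6 and 88.3 TPM and then at 62.0, 64.4 and 64.9 TPM. For both genes every day 1 library was below every day 0 library. The log2 fold change was -0.53 (adjusted p = 5.5e-06, SE 0.07) for *Shmt2* and -0.47 (adjusted p = 2.6e-05, SE 0.08) for *Mthfd2*. *Aldh1l2* (chr10:83487447-83534146), the mitochondrial formyl-tetrahydrofolate dehydrogenase, was at 1.04, 1.24 and 1.03 TPM on day 0 and at 0.275, 0.303 and 0.214 TPM on day 1, a log2 fold change of -1.98 (adjusted p = 4.1e-06, SE 0.27). That is the largest fall among the 9, and it rests on few reads, 42, 62 and 44 counts on day 0 and 13, 14 and 9 on day 1.

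The remaining genes had smaller values on the first day. *Mthfd1l* (chr10:3972892-4167081), the mitochondrial formate-releasing enzyme, was between 59.6 and 61.1 TPM on day 0 and between 66.02 and 69.9 TPM on day 1, a log2 fold change of 0.24 (adjusted p = 0.000962, SE 0.06). *Mthfd1* (chr12:76254406-76319820), the cytosolic enzyme of several activities, was between 185 and 215 TPM and then between 221 and 239 TPM, a log2 fold change of 0.23 (adjusted p = 0.00415, SE 0.06). In both the groups were apart by a small margin. *Shmt1* (chr11:60788897-60811265), the cytosolic serine hydroxymethyltransferase, was between 141 and 159.8 TPM and then between 133 and 142 TPM, which overlapped, and its log2 fold change of -0.07 (adjusted p = 0.377, SE 0.07) did not pass the test.

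**Figure D1:**
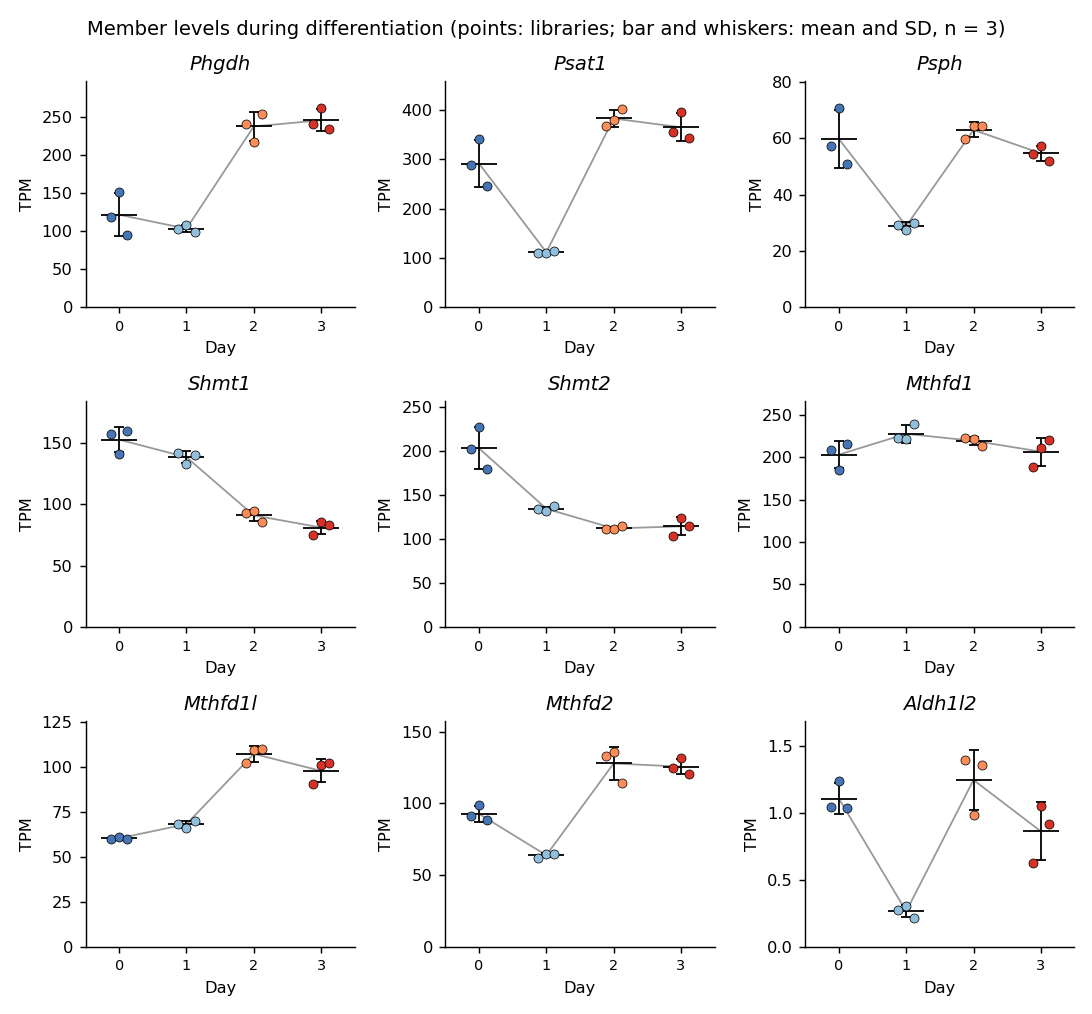
TPM (y axis, starting at 0) of each of the 9 genes against the day of differentiation (x axis), with 1 point per library and the mean and SD of 3 libraries as bars and whiskers. *Psat1*, *Psph* and *Mthfd2* drop on day 1 and are back at or above their day 0 mean on day 2, whereas *Shmt1* and *Shmt2* end on day 3 at 81.0 and 114 TPM from 153 and 203 TPM on day 0.

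On the second day *Psat1*, *Psph*, *Mthfd2* and *Aldh1l2*, which had fallen on the first, rose, as did *Phgdh* and *Mthfd1l*, while *Shmt1*, *Shmt2* and *Mthfd1* fell. All 9 genes passed the test between day 1 and day 2, 6 higher and 3 lower, against 32.5% and 29.6% of genes tested (62.1% in either direction). Of all genes, 68.3% did not overlap between these days. Their median log2 fold change was 0.89, beside 0.02 for all genes tested. *Psat1* reached 367, 379 and 402 TPM on day 2, above every day 1 and every day 0 library, a log2 fold change of 1.67 from day 1 (adjusted p = 2.8e-10, SE 0.09). *Psph* reached 59.9, 64.5 and 64.5 TPM, within its day 0 range, a log2 fold change of 1.01 from day 1 (adjusted p = 6.2e-08, SE 0.10). *Phgdh*, which had not passed the test on the first day, reached 241, 218 and 255 TPM, above all libraries of days 0 and 1, a log2 fold change of 1.09 from day 1 (adjusted p = 1.3e-05, SE 0.13). All 3 transcripts of serine synthesis thus rose between days 1 and 2, *Psat1* and *Phgdh* to above where they had started.

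Among the folate enzymes, *Mthfd2* rose from between 62.0 and 64.9 TPM to 133, 136 and 114 TPM, a log2 fold change of 0.89 (adjusted p = 7.5e-09, SE 0.07). *Mthfd1l* rose to 102, 109 and 110.0 TPM, a log2 fold change of 0.54 (adjusted p = 1.1e-07, SE 0.06), and *Aldh1l2* returned to 1.39, 0.983 and 1.36 TPM, a log2 fold change of 2.10 (adjusted p = 2.0e-06, SE 0.27). For each of these genes all day 2 libraries were above all day 1 libraries. *Shmt1* was at 92.6, 94.5 and 85.6 TPM on day 2 and *Shmt2* at 111, 111 and 114 TPM, below every day 1 library, with log2 fold changes of -0.72 (adjusted p = 4.7e-08, SE 0.07) and -0.38 (adjusted p = 0.000262, SE 0.08). *Mthfd1* was between 214 and 223 TPM, a log2 fold change of -0.17 (adjusted p = 0.0332, SE 0.06). That small difference lost its call without day 1 library 1 (adjusted p = 0.0523), day 1 library 3 (0.113) or day 2 library 3 (0.0897) and under 4 other settings. Upper-quartile scaling moved the median of all genes to 0.10 between these days. With it the other 8 genes kept their sign and their call.

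Against day 0, 4 of the 9 genes were higher and 2 lower on day 2 (34.2% and 32.4% of genes tested, 66.6% in either direction), and 4 were higher and 3 lower on day 3 (35% and 35.9%, 70.9% in either direction). The groups of 67.9% and 73.5% of all genes did not overlap in these comparisons. The 9 genes had medians of 0.12 and -0.06 beside 0.01 and -0.01 for all genes. *Phgdh* was at 242, 262 and 235 TPM on day 3, a log2 fold change of 0.93 from day 0 (adjusted p = 3.1e-05, SE 0.13), and *Mthfd1l* at 90.4, 101 and 102 TPM, a log2 fold change of 0.61 (adjusted p = 1.0e-08, SE 0.06). *Mthfd2* was at 125, 131 and 121 TPM, a log2 fold change of 0.35 (adjusted p = 0.000268, SE 0.07). All day 3 libraries of these 3 genes were above all day 0 libraries. *Shmt1* was at 74.9, 85.4 and 82.6 TPM and *Shmt2* at 104, 124 and 115 TPM, with log2 fold changes from day 0 of -0.9998 (adjusted p = 1.7e-10, SE 0.07) and -0.92 (adjusted p = 1.8e-09, SE 0.07) and no overlap with day 0.

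The other genes were near their starting level on day 3. *Psat1* was at 355, 397 and 343 TPM. The lowest of these is just above its highest day 0 library in TPM, the groups overlapped in CPM, and the log2 fold change was 0.24 (adjusted p = 0.0244, SE 0.09). It lost the call without day 0 library 1 (adjusted p = 0.0706), day 0 library 3 (0.127) or day 3 library 2 (0.134) and with only the 2 days fitted (0.0682). *Psph* was at 54.5, 57.4 and 52.03 TPM, inside its day 0 range, and its log2 fold change of -0.22 (adjusted p = 0.0489, SE 0.09) lost the call under most alternatives, with an adjusted p of 0.428 without day 0 library 2. *Mthfd1* (-0.06, adjusted p = 0.402, SE 0.06) and *Aldh1l2* (-0.45, adjusted p = 0.0797, SE 0.23) did not pass the test, the latter at 0.622, 1.05 and 0.912 TPM, and *Aldh1l2* passed without day 3 library 2 (-0.64, adjusted p = 0.0331). Between day 2 and day 3, none of the 9 rose and 2 fell (15.9% and 15.6% of genes tested, 31.5% in either direction, with 43.3% not overlapping), *Shmt1* by 0.21 (adjusted p = 0.0283, SE 0.07) and *Mthfd1l* by 0.18 (adjusted p = 0.0211, SE 0.06) on the log2 scale. At an unadjusted p under 0.05 edgeR put 0 genes higher and 4 lower, and DESeq2 with its adjusted p 0 and 1. The median of the 9 was -0.13, beside -0.01 for all genes. The count moved between 0 and 3 as single libraries were left out, with neither gene called without day 3 library 1 (adjusted p = 0.159 and 0.153).

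The promoters of *Psat1*, *Psph* and *Mthfd2*, whose transcripts fell on day 1 and rose on day 2 and had the 3 largest called rises of the 9 genes in *Nprl2* KO, are shown for what they hold and lack. The sequences are the 250 bases before the start site in RefSeq's GRCm38.p6 promoter table, 5′ to 3′ on the gene's strand, which is the minus strand for all 3. For *Psph* and *Mthfd2* that start lies inside the gene span given above, which takes in transcripts that start farther upstream. Capitals mark CCAAT or its reverse complement ATTGG.
*Psat1* chr19:15925060-15925309: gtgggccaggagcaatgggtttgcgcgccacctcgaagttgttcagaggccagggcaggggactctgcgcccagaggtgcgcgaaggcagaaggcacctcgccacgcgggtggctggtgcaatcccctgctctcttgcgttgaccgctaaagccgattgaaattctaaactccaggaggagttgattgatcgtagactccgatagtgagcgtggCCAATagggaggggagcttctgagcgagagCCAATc
*Psph* chr5:129787254-129787503: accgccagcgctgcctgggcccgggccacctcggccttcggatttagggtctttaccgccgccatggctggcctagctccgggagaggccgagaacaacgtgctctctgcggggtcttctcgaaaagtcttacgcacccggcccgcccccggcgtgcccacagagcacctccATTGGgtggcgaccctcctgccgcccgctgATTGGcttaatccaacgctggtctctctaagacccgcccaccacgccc
*Mthfd2* chr6:83317605-83317854: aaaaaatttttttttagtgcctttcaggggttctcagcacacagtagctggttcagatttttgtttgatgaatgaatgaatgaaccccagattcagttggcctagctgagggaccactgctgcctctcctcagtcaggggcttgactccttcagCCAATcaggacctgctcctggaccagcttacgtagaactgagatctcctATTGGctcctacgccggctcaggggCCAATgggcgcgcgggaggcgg

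Promoter windows of 300 bases, from 250 before to 50 after the start site, were held for 8 of the 9 genes, all but *Aldh1l2*, and were searched on both strands. The C/EBP-ATF response element core, TGATGNAA, was in none of the 8 windows, in 3.97% of the 32851 windows of all genes, and in those of 5 of 10 amino acid response genes, *Trib3*, *Asns*, *Chac1*, *Nupr1* and *Slc7a11*, and of the serine transporter gene *Slc1a4*. The E-box CACGTG was in none of the 8 and in 7.15% of all windows. CCAAT, searched after the sequences had been seen, was in the windows of *Phgdh*, *Psat1*, *Psph*, *Shmt1*, *Mthfd1* and *Mthfd2*, 6 of 8, and in 37.4% of all windows. Of these 6 genes, *Shmt1* and *Mthfd1* did not pass the test in either KO. A match is no evidence of binding, and no match says only that these letters are not in this window.

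In *Nprl2* KO GFP+ cells, all 3 transcripts of serine synthesis and 3 of the 4 mitochondrial ones were higher than in wild-type, and the cytosolic genes did not pass the test. Of the 9 genes, 6 were higher and none lower in *Nprl2* KO (2.78% and 3.66% of the 13725 genes tested, 6.43% in either direction). With 2 libraries a genotype, the groups of 51% of all genes did not overlap. At an unadjusted p under 0.05 edgeR put 6 higher and 0 lower, as did DESeq2 with its adjusted p, and limma on log2(TPM + 1) put 5 higher and 0 lower. The median log2 fold change of the 9 was 0.73, beside 0.00 for all genes tested.

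*Psat1* was at 134 and 135 TPM in wild-type and at 292 and 335 TPM in *Nprl2* KO, with a log2 fold change of 1.25 (adjusted p = 8.9e-06, SE 0.08). *Mthfd2* was at 46.8 and 48.3 TPM and at 104 and 114 TPM, a log2 fold change of 1.23 (adjusted p = 2.9e-05, SE 0.09). *Psph* was at 33.1 and 34.3 TPM and at 71.2 and 73.4 TPM, a log2 fold change of 1.12 (adjusted p = 6.6e-05, SE 0.10). The folds of these 3 genes were 2.38, 2.35 and 2.18, and both KO libraries stood above both wild-type libraries. *Phgdh* was at 91.8 and 91.4 TPM and at 149 and 153 TPM, a log2 fold change of 0.75 (adjusted p = 0.000169, SE 0.08). *Shmt2* was at 114 and 95.3 TPM and at 163 and 151 TPM, a log2 fold change of 0.61 (adjusted p = 0.00134, SE 0.08). *Mthfd1l* was at 55.9 and 56.8 TPM and at 74.3 and 73.3 TPM, a log2 fold change of 0.43 (adjusted p = 0.0126, SE 0.09). The call of *Mthfd1l* was lost with limma on log2(TPM + 1) (adjusted p = 0.0511) and without wild-type library 1 (0.0881), *Nprl2* KO library 1 (0.0798) or *Nprl2* KO library 2 (0.0687).

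*Shmt1* was at 154 and 145 TPM in wild-type and at 143 and 141 TPM in *Nprl2* KO, with a log2 fold change of -0.04 (adjusted p = 0.804, SE 0.08), and *Mthfd1* at 259 and 239 TPM and at 250.01 and 232 TPM, a log2 fold change of -0.01 (adjusted p = 0.974, SE 0.06). In both, the levels of KO and wild-type libraries were close or overlapped. *Aldh1l2* was at 0.472 and 0.682 TPM in wild-type and at 0.441 and 1.34 TPM in *Nprl2* KO, from 16 and 59 counts, and its log2 fold change of 0.73 (adjusted p = 0.434, SE 0.49) was not distinguishable from no change at this depth. Its sign rests on *Nprl2* KO library 2, without which it was -0.31.

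**Figure D2:**
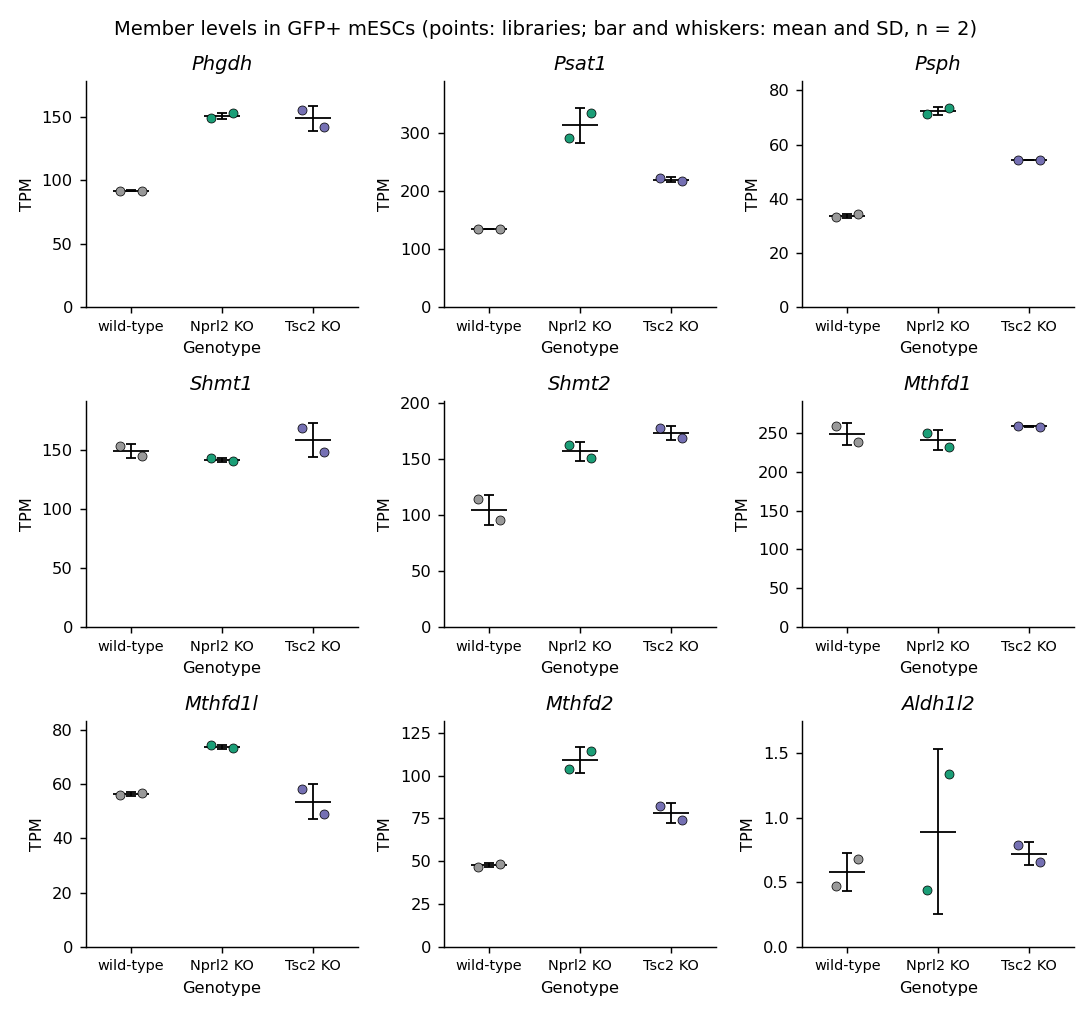
TPM (y axis, starting at 0) of each of the 9 genes in GFP+ mESCs of 3 genotypes (x axis), with 1 point per library and the mean and SD of 2 libraries. *Psat1*, *Psph* and *Mthfd2* are highest in *Nprl2* KO and intermediate in *Tsc2* KO, *Phgdh* and *Shmt2* are above wild-type in both, and *Shmt1* and *Mthfd1* lie between 141 and 169 TPM and between 232 and 259 TPM in all 6 libraries.

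In *Tsc2* KO the transcripts of serine synthesis, *Shmt2* and *Mthfd2* were higher than in wild-type by similar amounts, and *Mthfd1l* was not. Of the 9 genes, 5 were higher and none lower (14.9% and 14.2% of genes tested, 29.1% in either direction, with 65.9% not overlapping). The median of the 9 was 0.65 on the log2 scale, beside 0.01 for all genes. The counts were also 5 and 0 for edgeR at an unadjusted p under 0.05, for DESeq2 and for limma on log2(TPM + 1). *Phgdh* was at 156 and 142 TPM, *Psat1* at 223 and 217 TPM and *Psph* at 54.2 and 54.2 TPM in *Tsc2* KO, all above both wild-type libraries. Their log2 fold changes were 0.66 (adjusted p = 6.2e-05, SE 0.08), 0.67 (adjusted p = 5.6e-05, SE 0.08) and 0.65 (adjusted p = 0.000443, SE 0.10). *Shmt2* was at 177 and 169 TPM, a log2 fold change of 0.69 (adjusted p = 9.2e-05, SE 0.08), and *Mthfd2* at 82.2 and 74.2 TPM, a log2 fold change of 0.68 (adjusted p = 0.000202, SE 0.09). The 5 log2 fold changes lay between 0.65 and 0.69, closer to each other than 1 SE of any of them. *Mthfd1l* was at 58.1 and 49.0 TPM, on both sides of wild-type, a log2 fold change of -0.11 (adjusted p = 0.386, SE 0.09). *Shmt1* (0.05, SE 0.08), *Mthfd1* (0.02, SE 0.06) and *Aldh1l2* (0.31, SE 0.50) did not pass the test, with adjusted p values of 0.664, 0.845 and 0.687 from edgeR.

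Set against each other, the KO lines differed in 4 of the 9 genes, all lower in *Tsc2* KO than in *Nprl2* KO and none higher (16.6% and 17.5% of genes tested, 34.2% in either direction, with 68.1% not overlapping). The counts were also 4 and 0 for edgeR at an unadjusted p under 0.05, for DESeq2 and for limma on log2(TPM + 1). The median log2 fold change of the 9 was -0.42, beside -0.01 for all genes. This comparison is also the test of whether the effects of the KOs against their shared wild-type differ. The log2 fold change was -0.58 for *Psat1* (adjusted p = 9.9e-05, SE 0.07), -0.55 for *Mthfd2* (adjusted p = 0.000456, SE 0.09), -0.54 for *Mthfd1l* (adjusted p = 0.000491, SE 0.09) and -0.48 for *Psph* (adjusted p = 0.00165, SE 0.09). For each of these 4 genes both *Tsc2* KO libraries were below both *Nprl2* KO libraries, and the calls were made in every alternative run. *Phgdh* (-0.09, adjusted p = 0.405, SE 0.07) and *Shmt2* (0.07, adjusted p = 0.527, SE 0.08) did not pass the test, nor did *Shmt1*, *Mthfd1* and *Aldh1l2*. Within serine synthesis, then, the later steps *Psat1* and *Psph* differed between the KO lines, and a difference in *Phgdh*, the step before them, was not detected.

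**Figure D3:**
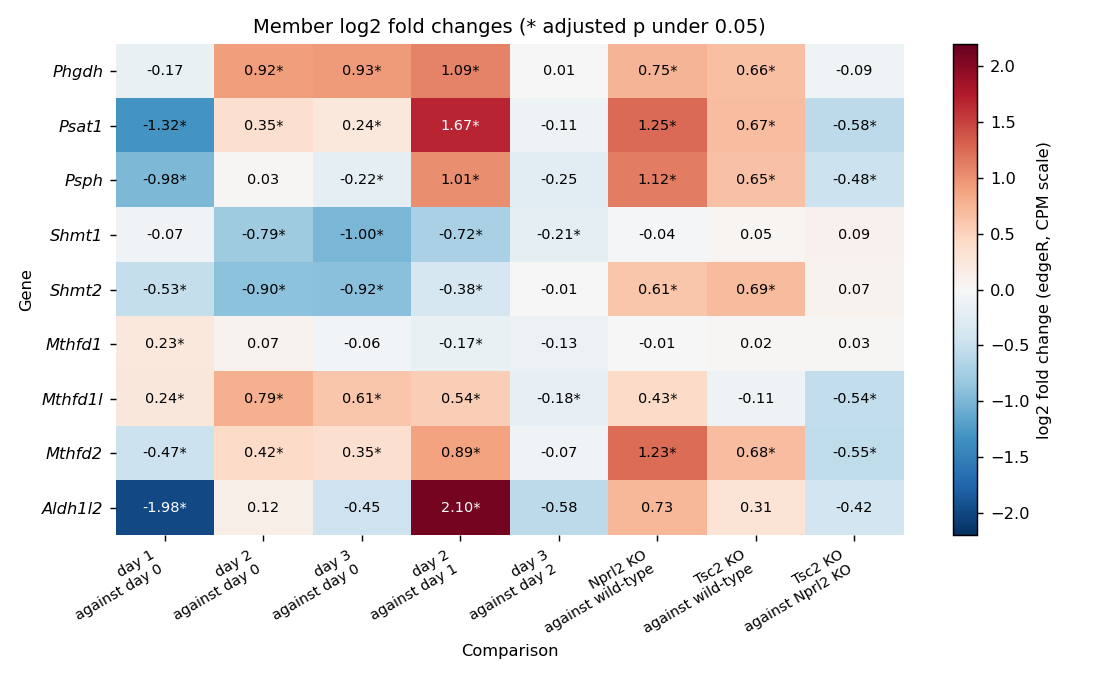
Log2 fold change of each gene (rows) in each of the 8 comparisons (columns) as a colour, red for higher and blue for lower in the group named first, with the value printed and a star where the adjusted p from edgeR is under 0.05. *Psat1*, *Psph*, *Mthfd2* and *Aldh1l2* are blue from day 0 to 1 and red from day 1 to 2, and the rows of *Shmt1* and *Mthfd1* are near 0 in the 3 columns of GFP+ cells.

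Over the 18 libraries, each experiment centred on its own mean, log2 CPM of *Psat1* went most closely with that of *Psph* (Pearson's r = 0.95) and *Mthfd2* (0.92) among the members, and *Psph* with *Mthfd2* at 0.89. *Phgdh* went with *Mthfd2* at 0.84 and with *Psat1* at 0.81. *Shmt1* and *Shmt2* went with each other at 0.73, and *Shmt2* had an r of 0.01 with *Psat1*. *Shmt1* ran against *Phgdh*, at -0.86. These values describe the 7 groups, whose libraries share genotype, day and preparation, and are given without p values. Among the 9466 other genes whose log2 CPM averaged 3 or more, the genes most like *Psat1* were *Chac1* (r = 0.97), *Gpt2* (0.97) and *Pck2* (0.96), and those most like *Psph* were *Trib3* (0.95), *Gpt2* (0.93) and *Nars* (0.93). *Mthfd2* was most like *Gars* (0.97), *Slc6a9* (0.95) and *Snhg8* (0.91), and *Phgdh* most like the serine transporter gene *Slc1a4* (0.94), *Zfp334* (0.93) and *Ero1a* (0.93). *Shmt2* was most like *Aup1* (0.94), *Stac2* (0.93) and *Atf5* (0.92), and *Mthfd1l* most like *Plxdc2* (0.94). *Shmt1* (*Trim28*, 0.99) and *Mthfd1* (*Dhx8*, 0.94) had other nearest genes, and *Aldh1l2* reached at most 0.89, with *Hnrnpr*.

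Genes around the route were counted in lists. Of 10 amino acid response genes outside the members, 8 fell and 1 rose on day 1 (median log2 fold change -1.28), 8 rose and none fell between days 1 and 2 (1.76), *Nprl2* KO had 6 higher (0.67) and *Tsc2* KO 7 (0.97), with 0 lower in either by edgeR, by edgeR at an unadjusted p under 0.05, by DESeq2 or by limma. All genes had medians between 0.00 and 0.02 in these comparisons. In either direction, 60.9%, 62.1%, 6.43% and 29.1% of all genes tested passed in the same order. Against day 0, 66.6% passed on day 2 and 70.9% on day 3. *Nupr1*, a stress-induced chromatin protein gene, had log2 fold changes of -4.73 on day 1, 3.20 between days 1 and 2, 2.64 in *Nprl2* KO and 2.51 in *Tsc2* KO. *Chac1*, which encodes an enzyme that breaks down glutathione, had values of -2.46, 3.59, 2.36 and 1.45 in the same order, and *Trib3*, a pseudokinase gene, -1.95, 1.75, 1.48 and 1.13. *Atf4* itself, outside the naming rule and given for its role, had -0.75, 0.38, 0.62 and 0.70. *Asns* had -1.57 on day 1 and rose little after that, by 0.22 between days 1 and 2. Against day 0 it was at -1.34 on day 2 and -1.43 on day 3. The 1 gene that rose on day 1 was *Slc7a11*, the cystine transporter, named here after its value of 0.47 was seen. The summed TPM of the 10 genes was between 1295 and 1469 on day 0, highest in library 2, and between 550.4 and 600.3 on day 1. It was between 812.7 and 913.6 on day 2 and between 810.0 and 863.1 on day 3, below every day 0 library, and against day 0, 4 of the 10 genes were higher and 5 lower on day 2 (median log2 fold change -0.15, beside 0.01 for all genes) and 3 higher and 6 lower on day 3 (-0.36, beside -0.01). In GFP+ cells it was 607 and 668 in wild-type, 886 and 978 with *Nprl2* KO, and 1055 and 1208 with *Tsc2* KO.

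Of 7 genes listed under serine and glycine uptake and transport, 6 were tested. On day 1, 2 rose and 4 fell (median -0.49), between days 1 and 2, 3 rose and 2 fell (0.37), *Nprl2* KO had 3 higher (0.46), and *Tsc2* KO had 4 higher and 1 lower (0.58). Beside these stand 60.9%, 62.1%, 6.43% and 29.1% of all genes tested, in either direction. *Slc6a9*, the glycine transporter, had log2 fold changes of -1.10, 2.50, 2.07 and 1.51 in those comparisons. *Slc1a4*, the neutral amino acid transporter that takes up serine, had values of 1.67 between days 1 and 2, 1.31 in *Nprl2* KO and 0.74 in *Tsc2* KO. *Sfxn3*, which encodes a mitochondrial serine carrier, had -3.02 on day 1, 0.72 between days 1 and 2 and 1.08 in *Tsc2* KO, and *Sfxn1*, its close relative, was lower in *Tsc2* KO, at -0.45. The 2 genes that rose on day 1 were *Slc25a32* (0.87) and *Sfxn1* (0.39), and both fell between days 1 and 2 (-0.55 and -0.42). All of these values passed the test.

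The pathways that serine and its one-carbon units feed were counted in the same way. Of all genes tested, 30.1% rose and 30.8% fell on day 1, and 32.5% rose and 29.6% fell between days 1 and 2. In *Nprl2* KO 2.78% were higher and 3.66% lower, and in *Tsc2* KO 14.9% and 14.2%. In the time course a call on its own therefore does not mark out these lists. Of 6 genes of glycine cleavage and threonine breakdown, 12 other folate cycle genes tested and 7 genes of the methionine cycle and transsulfuration, edgeR called 0 in *Nprl2* KO. At an unadjusted p under 0.05 it put 1, 2 and 2 of them past the threshold, and DESeq2 and limma called 0. Of the glycine and threonine genes, 1, *Tdh*, was higher in *Tsc2* KO (0.40). On day 1, 1 of them rose and 3 fell, and the largest fall was that of *Tdh*, the threonine dehydrogenase that supplies glycine in mouse stem cells, at -2.09, and -6.13 on day 3 against day 0. Of the other folate cycle genes, 4 rose and 4 fell on day 1, and 2 were higher and 2 lower in *Tsc2* KO. Among these 4 was *Aldh1l1*, the cytosolic counterpart of *Aldh1l2*, at 1.47. *Mthfd2l*, the close relative of *Mthfd2*, had log2 fold changes of 0.72, 1.57 and 2.40 on days 1, 2 and 3 against day 0. *Folr1*, a folate receptor gene, had 0.82 on day 1 and -3.54 on day 3. Of the methionine cycle and transsulfuration genes, 6 fell between days 1 and 2, and 1, *Ahcy*, which clears S-adenosylhomocysteine, was lower in *Tsc2* KO (-0.87). Of 6 genes of purine synthesis, which uses one-carbon units from *Mthfd1*, 5 rose on day 1, 1 was higher in *Nprl2* KO and 4 were lower in *Tsc2* KO, with *Gart*, the trifunctional enzyme of the route, at -0.49.

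Some of these genes have copies or several transcripts, which bears on how reads were assigned. Of the 31-base words in the *Phgdh* transcript, 73.5% also occur in at least 1 of 23 other genes, and 30.5% in *Gm6756* or *Gm8096*, the only such genes in the deposited list. These were at most 0.816 and 0.184 TPM in any library, and reads from unlisted copies would have been counted as *Phgdh*, so its level carries that uncertainty. The share was 4.95% for *Shmt2*, 3.17% for *Psat1* and under 1% for *Shmt1* and *Mthfd1l*, and none of the words of *Psph*, *Mthfd1*, *Mthfd2* or *Aldh1l2* was shared. *Psat1* and *Shmt2* are listed with 2 transcripts each, *Mthfd1l* with 3 and the others with 1. The *Shmt2* transcripts, listed at 2305 and 2296 bases, differ inside the coding sequence by the 9 bases in capitals, at the start of exon 2 (chr10:127521107-127521115, GRCm38, minus strand). They are shown with 20 bases on each side because the split between the transcripts turns on these bases.
NM_028230: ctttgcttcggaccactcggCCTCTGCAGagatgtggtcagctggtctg
NM_001252316: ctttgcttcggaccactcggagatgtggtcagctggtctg

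The shorter form took between 9.45% and 16.6% of *Shmt2* TPM on day 0 and between 17.1% and 30.98% on day 1. Its share was between 14.9% and 42.0% on day 2 and between 21.98% and 34.55% on day 3. It took between 13.3% and 29.9% in wild-type GFP+ cells, between 14.1% and 18.1% in *Nprl2* KO and between 10.7% and 16.4% in *Tsc2* KO. Neighbouring groups overlapped except day 0 and day 1, where the ranges nearly touched, but day 3 lay above day 0. The longer form was at 171, 190 and 163 TPM on day 0 and at 70.5, 81.3 and 89.8 TPM on day 3. The shorter form was at 30.5, 37.7 and 17.0 TPM and then at 33.0, 42.9 and 25.3 TPM, which overlapped. The forms were not tested, and the values of the sections above are given for the gene. The second *Psat1* transcript took at most 1.32% of the gene's TPM in any library.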

How the data were processed

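RNA-seq of 12 time-course and 6 GFP+ libraries was analysed. The authors ran kallisto 0.42.1 (per the submitters' processing notes, with the mm10 build) and deposited estimated counts and TPM per RefSeq transcript. Neither is normalized between libraries. The GFP+ libraries came from a stranded mRNA kit and paired reads. Their DESeq2 comparisons, which hold log2 fold changes and p values, were not used. Of 34079 transcripts, 33713 were assigned to genes through RefSeq (GRCm38.p6) and 192 through GENCODE M21, and 174 had no gene. Between 1.65% and 3.57% of counts came from these. Gene sums of the estimated counts were rounded and fitted with edgeR 4.0.16 (R 4.3.3, TMM, filterByExpr, robust quasi-likelihood F test, Benjamini-Hochberg over all genes, threshold 0.05). All 12 time-course libraries (14382 genes, common coefficient of variation 0.0728) and all 6 GFP+ libraries (13725 genes, 0.0777) were fitted separately. Total counts were between 12503005 and 15305054, and between 8610357 and 13780861. Transcript length minus effective length was 179 in the time course and between 169.6 and 227.9 in GFP+ libraries, highest in *Nprl2* KO library 1. TPM values printed are sums over a gene's transcripts, and fold changes are on the CPM scale of edgeR.

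All 9 members are named. From each neighbouring list at most the 4 called genes with the largest change in a comparison are named, unless the text says otherwise. The members, lists and motifs were chosen with earlier results of these data known. Alternatives were DESeq2 1.42.0, upper-quartile scaling, other filters, the replicate number as a block, only the 2 groups compared, limma 3.58.1 on log2(TPM + 1) and log2(TPM + 0.1), and leaving out each library. The fits were checked on simulated data.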

Additional observations from a re-analysis of the deposited data

Results flagged for a closer look

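The effect of losing Tsc2 differed from that of losing Nprl2, by edgeR's test of *Tsc2* KO against *Nprl2* KO (Benjamini-Hochberg adjustment), in 4 of the 9 genes. The log2 fold change between the KO lines was -0.58 for *Psat1*, -0.48 for *Psph*, -0.54 for *Mthfd1l* and -0.55 for *Mthfd2*. Both *Tsc2* KO libraries were below both *Nprl2* KO libraries for each gene. Of all genes tested, 34.2% passed in this comparison, 16.6% being lower in *Tsc2* KO, and the groups of 68.1% did not overlap. With 2 libraries per genotype, whose origin from separate clones is not stated, genotype and clone cannot be told apart. With 2 or 3 libraries a group, no search for outlying libraries was made.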

How the results depend on the processing

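The number of the 9 genes called stayed within 1.5 times the reported count in every alternative for 7 of the 8 comparisons. The exception was day 3 against day 2, with 2 genes reported, 1 with DESeq2 or with no low-count filter, and 0 with limma on log2(TPM + 1) or log2(TPM + 0.1). Leaving out single libraries gave between 0 and 3 there, with 1 without day 2 library 1, day 2 library 2 or day 3 library 3 and 0 without day 3 library 1. Requiring 10 counts in every library dropped *Aldh1l2* from the time course. Among log2 fold changes of single genes, settings other than leaving out a library left 541 with the same sign and call, made 19 lose and 3 gain a call, and turned 8 in sign, and leaving out a library gave 656, 23, 6 and 17. The values that turned were uncalled. *Mthfd1* on day 3 against day 0 turned to 0.0242 and 0.0243 with the limma fits, and *Shmt2* on day 3 against day 2 to 0.0062 with DESeq2, 0.0034 with no filter, and 0.0259 and 0.0261 with the limma fits. *Phgdh* on day 3 against day 2 turned to -0.0082 with upper-quartile scaling. As libraries were left out, *Phgdh* ranged from -0.3089 to 0.0139 on day 1 against day 0 and from -0.0482 to 0.0578 on day 3 against day 2, where *Shmt2* ranged from -0.0762 to 0.058. On day 2 against day 0 the ranges were -0.0694 to 0.1581 for *Psph* and -0.0103 to 0.1165 for *Mthfd1*. In *Nprl2* KO they were -0.075 to 0.0486 for *Mthfd1* and -0.3094 to 1.2654 for *Aldh1l2*. In *Tsc2* KO they were -0.056 to 0.1563 for *Shmt1*, -0.0233 to 0.0585 for *Mthfd1* and -0.2487 to 0.0261 for *Mthfd1l*. Between the KOs they were -0.1676 to 0.0022 for *Phgdh*, -0.013 to 0.2027 for *Shmt1*, -0.0274 to 0.0852 for *Mthfd1* and -0.968 to 0.6171 for *Aldh1l2*. The cause was not tested.

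Over all genes, limma on log2(TPM + 1) gave 5639 higher and 3203 lower between days 1 and 2, against 4677 and 4254, and 2669 and 1656 between *Tsc2* KO and *Nprl2* KO, against 2408 and 2284. Without a filter 1667 genes were called in *Nprl2* KO in place of 883. Same-numbered libraries deviated together little (r between -0.10 and 0.12 in the time course and between 0.07 and 0.15 in GFP+ cells). With 2 libraries a genotype these values cannot settle whether the numbers pair the GFP+ libraries, and the main fits did not pair them. With the replicate number as a block, 2072 genes in place of 883 were called in *Nprl2* KO and 5255 in place of 3996 in *Tsc2* KO. With it the 9 genes gave 7, 6, 7, 9 and 3 calls in the time course (days 1, 2 and 3 against 0, 2 against 1, 3 against 2) and 6, 5 and 4 in GFP+ cells. *Psph* gained a call between days 2 and 3 (-0.25, adjusted p = 0.0413 from edgeR), and *Phgdh* was at -0.0011 there. Where leaving out a library left 1 in a genotype, it was assumed to vary like the other groups. Counts of 9 to 62 limit what can be said of *Aldh1l2*.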
